A study of Homo sapiens with 4 samples.

Results

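The plasminogen activator genes were examined in A549 cells as 5 of the 64253 genes of the count table, taken by gene name: PLAU, PLAT, PLAUR, SERPINE2 and SERPINB2. The libraries came from A549, an established human line that derives from an adenocarcinoma of the lung. One group of 2 libraries carried an NFATc2 plasmid and the other group of 2 an NFATc2M plasmid, and the cells of all 4 libraries received OPNc-CM, medium conditioned by HEK-293 T cells that express osteopontin isoform c. NFATc2 is a transcription factor that enters the nucleus on calcium signals, and NFATc2M lacks a short stretch of its DNA binding domain. The contrast asks which transcripts differ when the overexpressed factor can or cannot bind DNA. Both plasmids were given by transient transfection and the cells keep their own NFATC2 gene. Neither an empty vector nor a culture without OPNc-CM was among these libraries, so a level that both groups share cannot be set against an untreated state.

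Plasmin, the protease that dissolves fibrin and cleaves matrix proteins, is made from plasminogen by the urokinase and tissue-type activators. PLAU encodes urokinase (uPA), PLAT the tissue-type activator (tPA) and PLAUR the glycolipid-anchored urokinase receptor (uPAR), which holds the enzyme at the cell surface. Serpins trap these proteases in stable complexes, and SERPINE2 (protease nexin-1) and SERPINB2 (PAI-2) are 2 that act on urokinase. In epithelial tumors the urokinase arm is best known for its part in invasion, whereas tPA is known mainly as the fibrinolytic activator of endothelial cells.

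Gene counts came to 21011786 to 23527259 per library. NFATC2 had 47791 to 58522 counts, and since both plasmids carry this gene its level does not check the labels. All 8 epithelial and A549 markers (KRT8, KRT18, KRT19, EPCAM, CDH1, ALDH1A1, AKR1B10 and AKR1C2) reached at least 10 counts in a library, with EPCAM lowest at 48 to 70. The 5 endothelial markers, which bear on tPA, were summed in CPM (the count relative to its library's total, scaled to a fixed sum). The sums were 0.0916 to 0.255 in NFATc2 and 0.562 to 1.05 in NFATc2M libraries. They rest on few counts, at most 11 for a gene in a library (TEK in NFATc2M replicate 1, with 0 in each other library). PTPRC and CD3E of leukocytes and COL1A2 and DCN of fibroblasts had 0 counts in each library, and COL1A1, at 536 to 786 counts, made up nearly all of the fibroblast sum. The 3 HEK-293 T markers summed to 77.6 to 93.04 CPM over all libraries; where those reads came from was not tested.

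Because NFATc2 acts by binding DNA, the sequence before the transcription start is shown for 4 of the genes. RefSeq windows (GRCh38.p14) were searched on both strands for GGAAA, the core that NFAT proteins recognise, TGANTCA, which holds the AP-1 site, CCAAT and TATAAA. Each window covered the 250 bases before a start, and 6 windows were found for PLAU, PLAUR, SERPINE2 and SERPINB2. Capitals mark a match to any of these motifs on either strand, and every sequence runs 5′ to 3′ on the strand of its gene.
PLAU, chr10:73910882-73911131, plus strand: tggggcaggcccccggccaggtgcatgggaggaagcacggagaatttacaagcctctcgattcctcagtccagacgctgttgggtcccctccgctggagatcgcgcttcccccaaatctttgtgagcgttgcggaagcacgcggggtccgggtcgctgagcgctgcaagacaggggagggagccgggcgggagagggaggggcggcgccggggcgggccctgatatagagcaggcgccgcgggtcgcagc
PLAUR, chr19:43670337-43670366, minus strand, the 30 bases around its AP-1 match: tcacaactccaTGAGTCAgggccgagccag
SERPINE2, chr2:224031479-224031728, minus strand: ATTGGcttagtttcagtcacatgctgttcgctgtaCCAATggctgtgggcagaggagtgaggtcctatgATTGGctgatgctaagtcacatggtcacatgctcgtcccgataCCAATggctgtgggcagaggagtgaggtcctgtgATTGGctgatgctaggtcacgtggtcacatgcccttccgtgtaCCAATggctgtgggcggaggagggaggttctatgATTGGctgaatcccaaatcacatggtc
SERPINB2, chr18:63887455-63887704, plus strand: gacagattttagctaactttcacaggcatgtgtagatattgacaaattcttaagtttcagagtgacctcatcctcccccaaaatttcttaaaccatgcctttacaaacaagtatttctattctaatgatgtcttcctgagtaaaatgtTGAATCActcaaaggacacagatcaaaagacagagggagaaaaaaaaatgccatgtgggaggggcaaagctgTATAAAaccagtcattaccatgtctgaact

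The PLAU window shown lies before position 73911132, the start of the transcript selected in the GENCODE annotation, and held none of the 4 motifs. A second PLAU window, before a start at 73910610, held 1 GGAAA match on the other strand, at -110 to -106 from that start, and 1 CCAAT. The PLAUR window held TGAGTCA at -186 to -180 from its start and no GGAAA. In SERPINE2, the window shown carried a 17-base unit, taccaatggctgtgggc, 3 times at a spacing of 77 bases, and with it 7 CCAAT matches, 3 as written and 4 on the other strand. The other SERPINE2 window, before a start at 224038640 and 75.2% GC, held 1 GGAAA match on the other strand. Both starts lie inside the gene, and neither window precedes 224039286, where the transcript selected by GENCODE begins. The windows of PLAU, PLAUR and SERPINB2 also lie inside the annotated genes, but those shown come before the selected starts. SERPINB2 had TGAATCA at -102 to -96 from its start, a match through the N that differs from the usual AP-1 letters, and TATAAA at -30 to -25. Among all 35116 windows of the same length, 55.6% held GGAAA, 6.57% TGANTCA, 32% CCAAT and 10.7% TATAAA, so that a window without GGAAA was common. No match says only that these letters are not in this window.

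**Figure D1:**
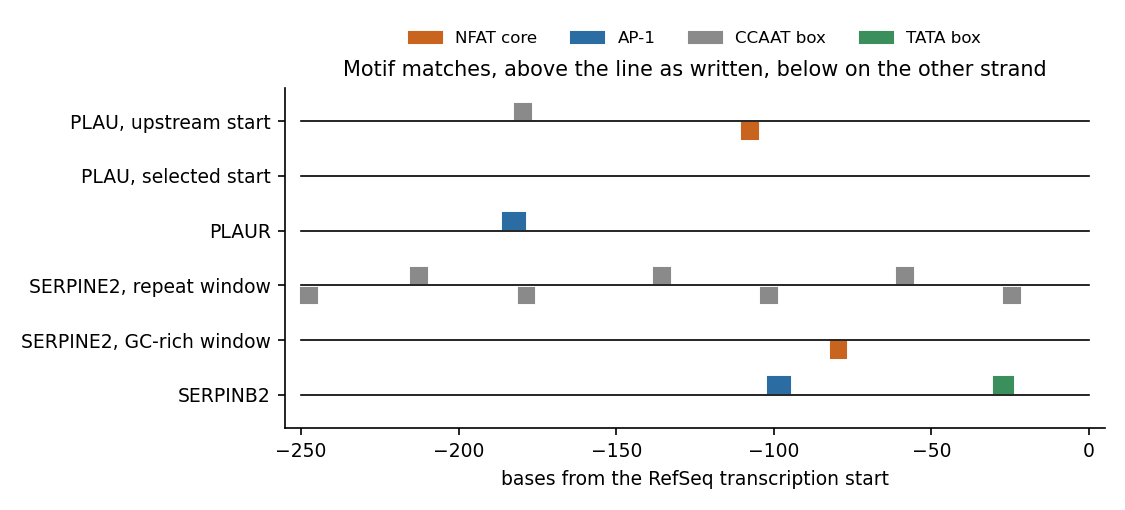
Positions of the motif matches in the 6 RefSeq windows, in bases from the transcription start (x axis), with boxes above a line for the strand of the gene and below it for the other strand. The GGAAA core occurs in 1 PLAU and 1 SERPINE2 window, and the 7 CCAAT matches stand in the SERPINE2 window with the 77-base repeat.

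PLAU was the most abundant of the 5 transcripts per length, followed by PLAUR and SERPINE2 at nearly the same level and then PLAT, while SERPINB2 was not detected. Levels were compared as CPM, here on TMM-normalized library sizes, per kb of exonic length. That length joins all annotated exons of a gene, at 2949 bases for PLAU, 4457 for PLAUR, 7770 for PLAT and 8957 for SERPINE2. Which of these exons the cells use was not tested. On this scale PLAU had 102 and 115 for NFATc2 and 119 and 117 for NFATc2M, and its mean of 113 was higher than that of 98.3% of the 17459 genes tested. SERPINE2 had 26.3 and 27.99 with NFATc2 and 26.6 and 27.4 with NFATc2M. PLAUR had 26.5 and 26.9 against 28.4 and 25.5 CPM per kb. On this scale the ranges of PLAUR and SERPINE2 overlapped, so their order was not resolved, and both lay above 90.4% of the genes tested. Before division by length SERPINE2 had 235 to 251 CPM and PLAUR 114 to 127 CPM, so their closeness depends on the lengths used. PLAT had 1.11 and 1.02 with NFATc2 and 1.14 and 1.296 CPM per kb with NFATc2M, above 25.8% of the genes tested, where the median gene had 3.77. The order PLAU, then PLAUR and SERPINE2, then PLAT was the same in all 4 libraries.

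**Figure D2:**
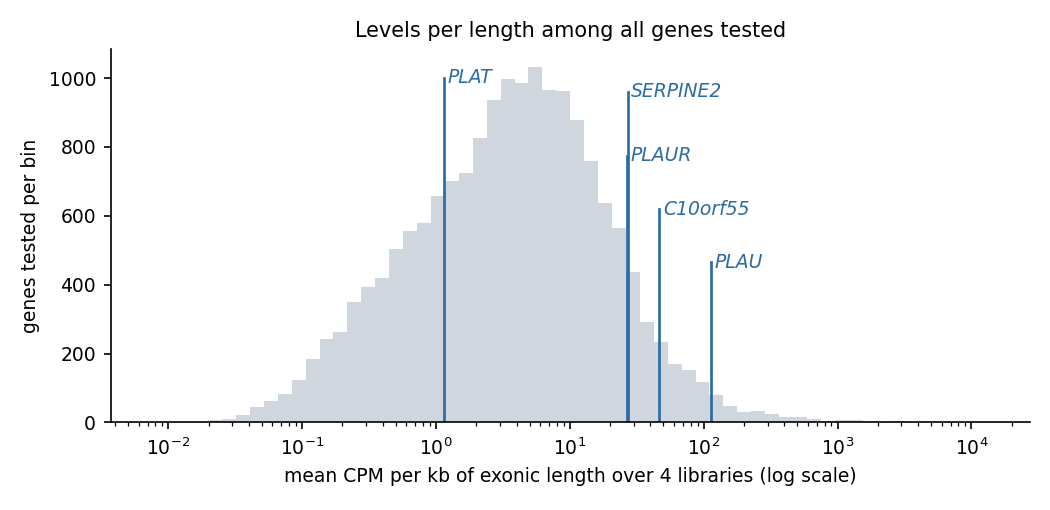
Number of genes tested (y axis) by mean CPM per kb of exonic length over the 4 libraries (x axis, log scale), with lines at PLAT, PLAUR, SERPINE2, PLAU and C10orf55, the gene opposite PLAU. PLAU at 113 stands far to the right of the median of 3.77, and PLAT at 1.14 to its left.

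The urokinase transcript exceeded that of its receptor in every library. The ratio of PLAU to PLAUR in CPM per kb was 3.87 and 4.26 with NFATc2 and 4.19 and 4.56 with NFATc2M. PLAU over PLAT was 92.5 and 113 against 104 and 89.9, and PLAUR over PLAT was 23.9 and 26.4 against 24.9 and 19.7. SERPINE2 over PLAU was 0.256 and 0.244 with NFATc2 and 0.223 and 0.235 with NFATc2M. These ratios compare transcripts only and depend on the same exonic lengths, and the amounts of the proteins were not measured.

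None of the 4 genes with enough counts for a test passed it, and the fifth, SERPINB2, could not be tested. A call needed an adjusted p of at most 0.05 from edgeR's quasi-likelihood test and a log2 fold change of at least 0.26, a 1.2-fold change in either direction. Of the 4 members tested, 0 were called, against 8.64% of all genes tested (4.9% higher and 3.73% lower in NFATc2). That split, 856 higher and 652 lower, was 662 and 864 under upper quartile scaling and 556 and 707 with library size only. At an unadjusted p under 0.05 from edgeR, 0 of the 4 passed, against 23.3% of all genes tested. Limma voom also called 0 of the 4, and DESeq2 called 0 of the 3 to which it gave an adjusted p, PLAT having none. The median log2 fold change of the 4 was -0.07, beside 0.00061 for all genes tested. In bulk RNA, fewer cells that express a gene and less RNA per cell cannot be told apart. Nothing in the labels says that the libraries came from separate cultures. Each p-value sets the difference between groups against a spread estimated from these libraries only, in part across genes, and that spread may be technical.

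PLAU, on chromosome 10 of GRCh38 from 73909177 to 73917496 on the plus strand, was read 6528 and 7862 times with NFATc2 and 7432 and 7435 times with NFATc2M. These were 302 and 339 CPM against 351 and 344 CPM. Both NFATc2 libraries lay below both NFATc2M libraries, but the NFATc2 libraries differed from each other by 0.17 on the log2 scale, more than the groups did. Mean levels were 320 ± 25.9 CPM (SD, n = 2) for NFATc2 and 347 ± 5.48 CPM (SD, n = 2) for NFATc2M. On the log2 scale NFATc2 stood at -0.12 relative to NFATc2M (standard error 0.10, 95% interval -0.32 to 0.09, adjusted p = 0.54 from edgeR). As a ratio this was 0.922, with an interval from 0.800 to 1.063. Counting error alone was 0.017 on the log2 scale, so that depth was not what limited this comparison.

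Across 17163 genes, fold changes fell as exonic GC content rose (Pearson's r = -0.457), although genes are no independent replicates. PLAU exons had 53.8% GC beside a median of 48.7% over the genes tested. After an offset took out the trend of each library with GC content and length, the log2 fold change of PLAU was -0.0016 (adjusted p = 1 from edgeR).

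PLAT, which lies on chromosome 8 from 42174718 to 42207709 on the minus strand, had 186 and 184 counts with NFATc2 and 188 and 218 with NFATc2M. The corresponding values were 8.61 and 7.93 CPM against 8.89 and 10.1 CPM. As for PLAU, both NFATc2 libraries were below both NFATc2M libraries, by a narrow margin. The log2 fold change was -0.20 (standard error 0.21, 95% interval -0.62 to 0.22, adjusted p = 0.63 from edgeR). The interval reaches from 0.650-fold to 1.17-fold, the widest of the 4, and counting error of 0.10 on the log2 scale was a larger part of it than in the other genes. PLAU and PLAT were the 2 of 4 members whose groups did not overlap, both lower in NFATc2, whereas 26% of all genes tested were placed in that way.

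PLAUR, on chromosome 19 from 43646095 to 43670547 on the minus strand, had 2551 and 2787 counts with NFATc2 and 2682 and 2463 with NFATc2M. It had 118 and 120 CPM in the NFATc2 libraries, which lay between the 127 and 114 CPM of the NFATc2M libraries. The log2 fold change was -0.01 (standard error 0.11, 95% interval -0.23 to 0.21, adjusted p = 0.96 from edgeR). The NFATc2M libraries differed by 0.16 on the log2 scale, with a counting error of 0.040. The interval stayed inside the 0.26 threshold on both sides.

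SERPINE2, on chromosome 2 from 223975045 to 224039318 on the minus strand, had 5082 and 5818 counts with NFATc2 and 5034 and 5302 with NFATc2M. The CPM were 235 and 251 against 238 and 245, and the groups overlapped. Its means of 243 ± 10.97 CPM (SD, n = 2) for NFATc2 and 241 ± 4.98 CPM (SD, n = 2) for NFATc2M gave a log2 fold change of 0.01 (standard error 0.11, 95% interval -0.20 to 0.22, adjusted p = 0.97 from edgeR). This interval also lay within the threshold on both sides. The signs of the PLAUR and SERPINE2 values turned under other scalings, offsets or left-out libraries, so neither has a direction here.

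SERPINB2, on chromosome 18 from 63871692 to 63903888 on the plus strand, had 0 counts in each of the 4 libraries. A count of 0 allows up to 3 counts, which is 0.128 to 0.143 CPM or 0.0465 to 0.0521 CPM per kb, against 27.0 CPM per kb for SERPINE2. These limits cover counting error only. The neighbouring clade B serpin genes SERPINB7 and SERPINB8, which flank it among the genes tested at 66316 and 66141 bases, were read in every library, with 76 to 100 and 439 to 642 counts. Between them, SERPINB10 of the same cluster also had 0 counts in each library.

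**Figure D3:**
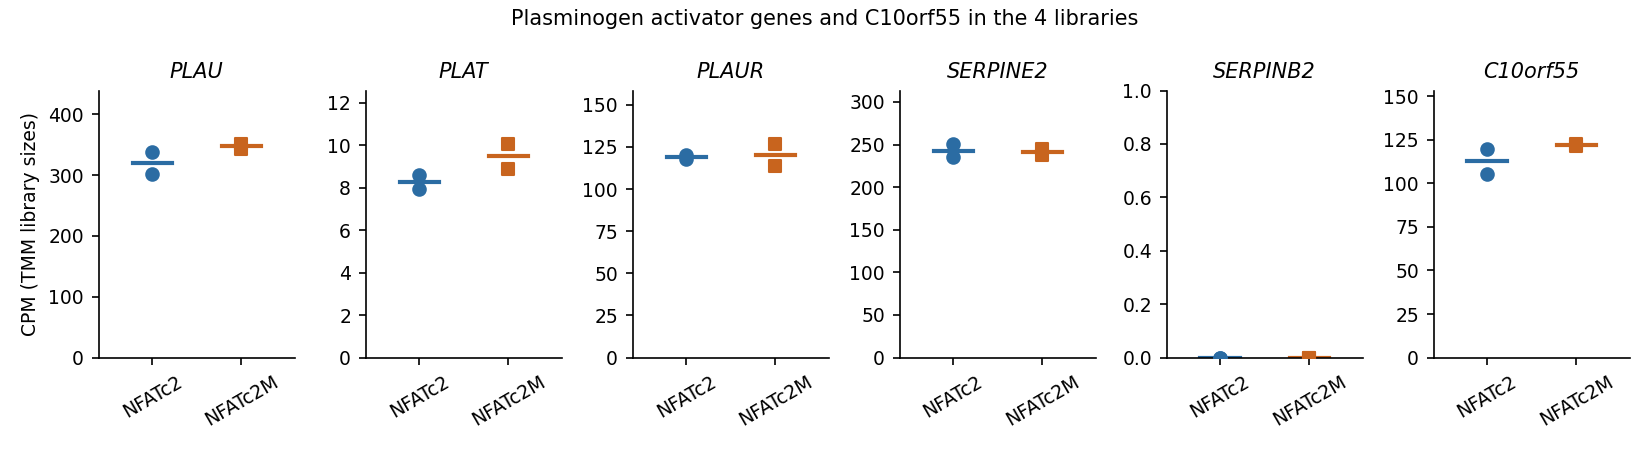
CPM of the 5 genes and of C10orf55 in each library (y axes from 0), with circles for NFATc2, squares for NFATc2M and a bar at the mean of each group (n = 2). The groups overlap for PLAUR and SERPINE2, stand slightly apart for PLAU and PLAT, and are at 0 for SERPINB2.

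**Figure D4:**
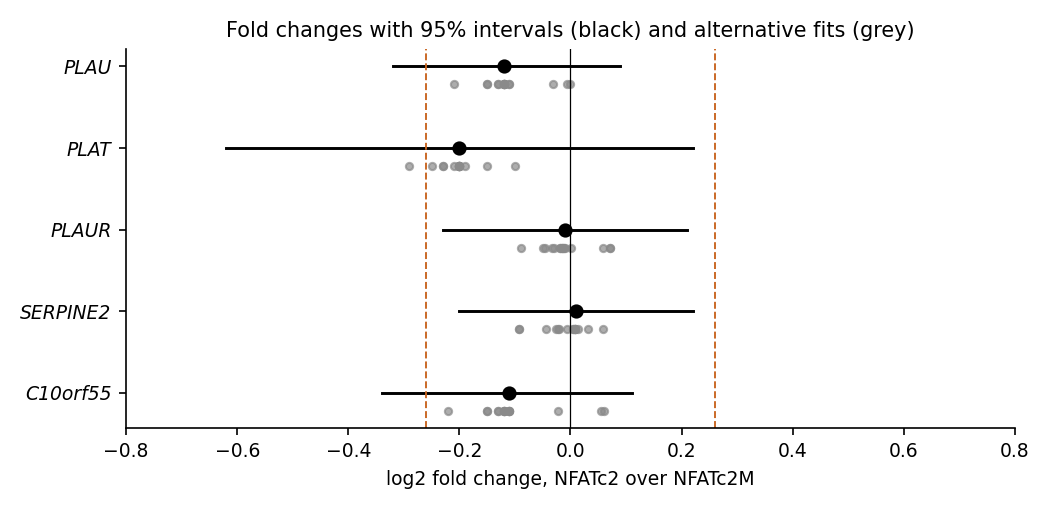
Log2 fold change of NFATc2 over NFATc2M (x axis) for each tested gene, with the edgeR estimate and its 95% interval in black and the estimates of the alternative fits in grey, and dashed lines at the threshold of 0.26. Each interval crosses 0, and those of PLAUR and SERPINE2 lie between the dashed lines.

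The urokinase locus carries a second counted gene on the opposite strand. C10orf55, annotated as a long noncoding RNA from 73909969 to 73922777 on the minus strand, shares 31.0% of the exonic bases of PLAU, which are 36.4% of its own. It had 2280 and 2781 counts with NFATc2 and 2568 and 2654 with NFATc2M, a level of 42.0 to 48.8 CPM per kb. In each library its counts were close to the same fraction of those of PLAU, at 34.9% and 35.4% with NFATc2 and 34.6% and 35.7% with NFATc2M. In edgeR C10orf55 stood at -0.11 (standard error 0.11, adjusted p = 0.58) on the log2 scale, beside -0.12 for PLAU. The strand setting of the counting is not given in the sources used here, and reads that met no gene held 44% to 44.6% of each library's total. Reads of PLAU and of C10orf55 over the shared bases cannot be told apart in these counts, and the values of both genes carry that limit.

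The nearest tested genes on either side were mostly not called, as were most genes tested, of which 8.64% were called. CAMK2G encodes a calcium and calmodulin-dependent kinase subunit and lies on the minus strand, 34586 bases from PLAU on the side of lower coordinates. It was lower with NFATc2, at 39.7 and 41.9 CPM against 58.2 and 59.3 CPM in the NFATc2M libraries. The ratio was 0.694 (95% interval 0.582 to 0.829, adjusted p = 0.0036 from edgeR). The call did not hold without either NFATc2 library or without NFATc2M replicate 1 (adjusted p = 0.093, 0.056 and 0.072 from edgeR), while the log2 fold change stayed between -0.57 and -0.48, beside -0.53 with all libraries. VCL, which encodes the adhesion protein vinculin on the other side of PLAU, was not called (adjusted p = 0.24 from edgeR). The other named neighbours, CADM4 and SMG9 around PLAUR, AP3M2 and IKBKB around PLAT, and MRPL44 beside SERPINE2, had adjusted p from 0.089 to 0.92 in edgeR and were not called.

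Around these 5 genes, 81 further genes were listed. Most were listed by role in the plasminogen system, but 22 other serpins and 8 LY6/uPAR domain proteins were listed by family only. Of the 45 that passed the filter on low counts, 1 was higher and 1 lower in NFATc2 and 43 did not pass, against 8.64% of all genes tested that were called. The median log2 fold change of the 45 was -0.05, and 10 of the 81 had 0 counts in all libraries.

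Plasminogen itself was nearly absent from these cells, with 0 counts in 3 libraries and 3 in the fourth. Of its cell surface receptors, PLGRKT, a membrane receptor that binds plasminogen through a terminal lysine, was higher with NFATc2. It had 231 and 202 counts with NFATc2 and 96 and 140 with NFATc2M, which were 10.7 and 8.70 CPM against 4.54 and 6.47 CPM. Both NFATc2 libraries lay above both NFATc2M libraries, and the log2 fold change was 0.81 (standard error 0.23, 95% interval 0.36 to 1.27, adjusted p = 0.014 from edgeR). The PLGRKT call did not hold under the GC content and length offset (0.70, adjusted p = 0.072 from edgeR, but 0.031 with a replicate block added), nor without NFATc2 replicate 1 (0.66, adjusted p = 0.17) or NFATc2M replicate 1 (0.57, adjusted p = 0.45). DESeq2 gave PLGRKT no adjusted p and so no call. The abundant receptors did not pass. ANXA2, an annexin that binds plasminogen and tPA, had 2149 and 2260 CPM with NFATc2 and 2263 and 2164 with NFATc2M, and ENO1, an enolase that also binds plasminogen at the surface, had 2825 and 2954 against 2900 and 2662 CPM. S100A10, the partner of ANXA2, had 310 and 287 against 249 and 252 CPM (log2 fold change 0.25, adjusted p = 0.12 from edgeR).

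Among 15 targets of urokinase or plasmin, MMP14, the membrane-anchored matrix metalloproteinase that cleaves collagen, was the 1 gene called. It had 49 and 48 counts with NFATc2 and 98 and 115 with NFATc2M, which were 2.27 and 2.07 CPM against 4.63 and 5.31 CPM. The groups were well apart, at -1.20 on the log2 scale (standard error 0.31, 95% interval -1.81 to -0.58, adjusted p = 0.0065 from edgeR). The MMP14 call did not hold under the same offset (adjusted p = 0.059 from edgeR, but 0.034 at -0.99 with a replicate block added), nor without NFATc2 replicate 2 or either NFATc2M library (-1.14, -1.30 and -1.09, adjusted p = 0.081, 0.15 and 0.070). DESeq2 gave MMP14 no adjusted p and so no call. The other 8 tested targets did not pass, among them FN1, fibronectin, with 573 and 679 CPM against 687 and 649 CPM. The chains of fibrinogen, the precursor of fibrin, had at most 14 counts in a library (FGA, FGB and FGG).

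No gene passed among the other lists. Of 8 proteases that can activate the urokinase precursor, the 2 with the most counts were the cathepsins CTSB, with 760 and 728 against 767 and 713 CPM, and CTSL, with 547 and 529 against 629 and 624 CPM. CTSL had a log2 fold change of -0.22 (adjusted p = 0.17 from edgeR) and was called under the GC content and length offset (-0.27, adjusted p = 0.044 from edgeR). Of 16 partners and endocytic receptors of uPAR, 15 were tested and 0 called, with log2 fold changes from -0.22 to 0.41. The integrin subunits ITGB1 and ITGA3, which associate with uPAR, had the most counts, with 2210 and 2366 against 1903 and 2078 CPM for ITGB1 (adjusted p = 0.21 from edgeR) and 1470 and 1514 against 1615 and 1497 CPM for ITGA3 (adjusted p = 0.78 from edgeR).

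Of 7 other inhibitors of plasmin and its activators, SERPINF2 (antiplasmin) and SERPING1 (the C1 inhibitor) were the 2 that passed the filter, with 41 to 66 and 5 to 13 counts per library and no call. SERPINI1, neuroserpin, an inhibitor of tPA, lay below the filter with 5 and 10 counts against 1 and 1. Of 22 further serpins 8 were tested and 0 called, led in counts by SERPINH1, the collagen chaperone, at 167 and 174 against 201 and 185 CPM, and by SERPINB6 at 95.2 and 92.9 against 86.4 and 88.5 CPM. Of 8 proteins with the LY6/uPAR domain, CD59, an inhibitor of complement, had 347 and 356 against 299.8 and 311 CPM (log2 fold change 0.21, adjusted p = 0.21 from edgeR), and LYPD6 had 28 and 35 against 64 and 35 counts (adjusted p = 0.29 from edgeR).

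**Figure D5:**
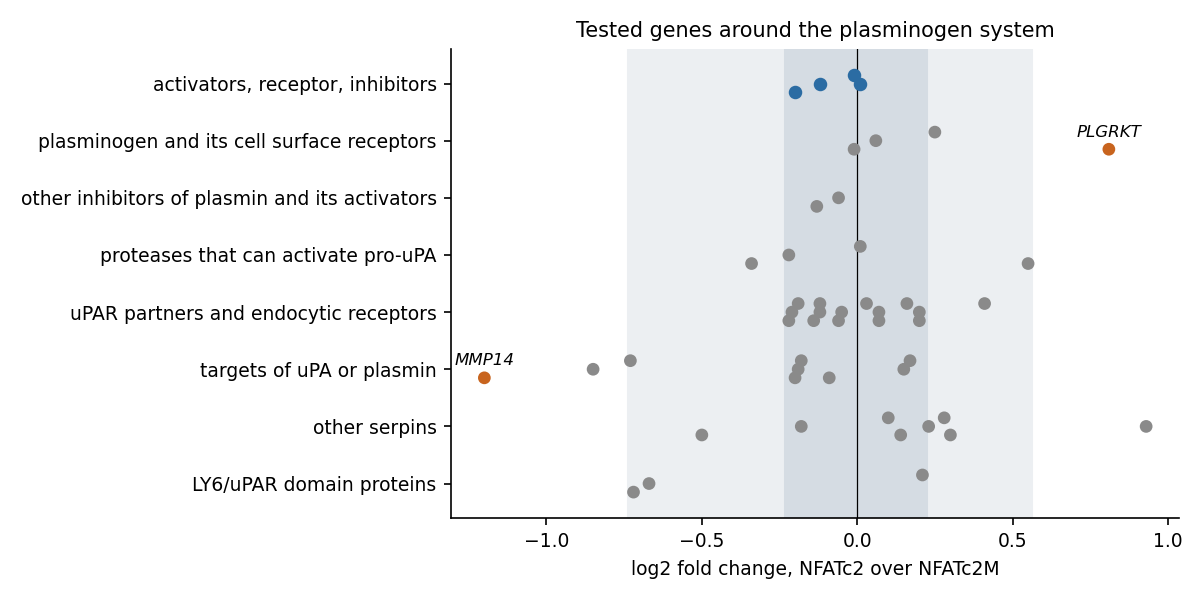
Log2 fold change of NFATc2 over NFATc2M (x axis) of each tested gene by list, with the 4 tested activator, receptor and inhibitor genes in blue, called genes in orange and the others in grey. The shaded bands hold all genes tested between the quartiles (dark, -0.23 to 0.23) and between the 5% and 95% quantiles (light, -0.74 to 0.56). PLGRKT at 0.81 and MMP14 at -1.20 are the called genes.

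The genes whose profile over the 4 libraries was most like that of each member were found by the root mean square difference of log2 CPM, centred on each gene's mean, among 9736 genes with at least 10 CPM. The nearest to PLAU were FOXC1, THSD7A and SOX13, at differences of 0.00493 to 0.00822. For PLAUR they were PDE4B, AP2M1 and COG4, at 0.00755 to 0.00971. For PLAT they were APC2, ACAD8 and SNHG14, at 0.0121 to 0.0269. For SERPINE2 they were MIEF1, CHD4 and PDCD11, at 0.00663 to 0.00880. With 4 libraries and profiles this flat, such closeness describes these libraries only.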

How the data were processed

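RNA was measured in 2 NFATc2 and 2 NFATc2M libraries of A549 cells. The deposited table holds raw integer counts of read pairs, not normalized. The authors aligned to GRCh38 with HISAT2 of unstated version, sorted with SAMtools 1.18 and counted per gene with HTSeq 0.11.2. Columns were matched to samples by name, and 4 unnamed value columns repeat these counts and were not used. The 5 HTSeq summary categories (56.4% to 57.4% of each total) were left out. Exonic length, GC content and coordinates come from GENCODE 44 on GRCh38.

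In R 4.3.3, edgeR 4.0.16 was run with filterByExpr, TMM and a robust quasi-likelihood fit (glmQLFit, legacy=TRUE) without a block, with Benjamini-Hochberg adjustment over 17459 genes, and the script was tested on simulated data. The standard error is the log2 fold change divided by the square root of F, and 95% intervals use the fit's degrees of freedom. Precision was set by 2 libraries a group and 21011786 to 23527259 gene counts each. Alternatives were DESeq2 1.42.0, limma 3.58.1 voom, other scalings, filters and spread estimates, a replicate block, a GC content and length offset (splines with 5 degrees of freedom, 17163 genes) and each library left out. The members and the gene lists were chosen with earlier results of these data known. The named genes are the members, up to 4 called genes of each list (else the 2 with the most counts), tested neighbours, overlapping genes and the 3 nearest profiles; SERPINB10, S100A10, FN1, SERPINI1 and the fibrinogen genes were added after their values were seen. Not every gene of the system is reported here. Figures were drawn with matplotlib 3.10.9.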

Additional observations from a re-analysis of the deposited data

How the results depend on the processing

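Of the 4 genes tested, 0 were called under each of the 16 alternatives. SERPINB2, with 0 counts in each library, entered none of the fits. PLAU kept its sign in all 16 (-0.21 to -0.0016) and PLAT in 15, DESeq2 giving it no adjusted p and so no call (-0.29 to -0.10). Over all genes, 1508 were called, 524 with the GC content and length offset, 829 with the replicate block and that offset, and 73 to 1963 with a library left out (fewest without NFATc2M replicate 1). Higher genes were the minority under upper quartile scaling (662 of 1526) and library size only (556 of 1263), and without NFATc2 replicate 1 (245 of 584) or NFATc2M replicate 1 (9 of 73).

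Log2 values that changed sign, none of them called, were as follows. With the offset, PLAUR was at 0.071, SERPINE2 at -0.092, C10orf55 at 0.060, SERPINF2 at 0.19, ITGA3 at 0.13 and SERPINB7 at -0.035. With the replicate block and the offset they were 0.071, -0.092, 0.055, 0.21, 0.13 and -0.035. SERPINE2 and CTSB were at -0.026 and -0.029 with upper quartile scaling, -0.023 and -0.024 with library size only, and -0.0066 and -0.0084 with the stricter filter. With a library left out, PLAUR ran from -0.089 to 0.058, SERPINE2 from -0.044 to 0.058, SERPINF2 from -0.38 to 0.33, SERPING1 from -1.02 to 0.43, CTSB from -0.043 to 0.053 and AP3M2 from -0.11 to 0.027. The cause of these shifts was not tested.

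Same-numbered libraries did not deviate together (r = 0.0408 across genes), so the numbers were not taken as pairs. The replicate block called 1759 genes and, of the 4 members tested, 0. Depth limits PLAT and SERPINB2 most. Leaving 1 library out leaves a group of 1, whose spread is then taken from the other group.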
